A study of Mus musculus with 4 samples.

Results

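The genes described here are 47 DNA replication and S-phase genes, named as a list and then looked up by gene symbol in the 2 deposited count tables, out of 20194 genes listed at either stage. At E15 47 of the 47 were listed, and 46 were listed at both stages, the exception being Fen1, which is not analysed here at E18. They were followed in brain endothelial cells of C57BL/6 mouse embryos at embryonic days 18 (E18) and 15 (E15). Knockout embryos carried the genotype UCP2f/f;Tie2-cre, a Ucp2 gene with floxed alleles together with Cre recombinase under the Tie2 promoter, and wild-type embryos are labelled WT with no further allele named. Tie2-driven Cre is active in endothelial cells and in most blood cells, so deletion is not limited to brain endothelium. There were 4 groups with 1 library each, called KO E18, WT E18, KO E15 and WT E15 below, although the series' design text speaks of triplicates. The sources used here state neither the method of cell isolation nor whether a library held 1 embryo or a pool.

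The libraries held 21992660 reads in genes for KO E18, 19075407 for WT E18, 16328300 for KO E15 and 15542930 for WT E15. Levels are CPM, read counts scaled to an equal library total, and a floor of 3 reads corresponds to between 0.136 and 0.193 CPM. Ucp2 (chromosome 7, 100493337 to 100502020), the targeted gene, had 150 CPM in KO E18 against 351 CPM in WT E18, and 163 CPM in KO E15 against 276 CPM in WT E15. Its log2 ratio of KO over WT was -1.22 at E18 and -0.75 at E15, so its transcript was lower in both knockout libraries and still present. The 2 libraries at E18 differed in sex: KO E18 had 547 Xist reads and 0 reads of the Y-linked gene Ddx3y, whereas WT E18 had 0 Xist reads and 5826 Ddx3y reads. At E15 Xist had 2109 reads in KO E15 and 2549 in WT E15, and Y-linked genes are not analysed here. WT E18 was the only library without Xist reads, so sex cannot be told apart from genotype at E18, from stage in wild type, or from whatever sets WT E18 apart. Of 10 endothelial markers none was at 0 in any library, and their summed level lay between 14908 and 17530 CPM. Their median log2 ratio of KO over WT was 0.02 at E18 and -0.05 at E15, with 5 and 2 of the 10 above 0. For E18 over E15 the medians were 0.12 in the knockout and 0.09 in wild type. Neural progenitor markers summed to between 622 and 786 CPM, of which Sox2 and Sox1 are not analysed here at E18, and neuron markers summed to between 52.6 and 115 CPM. In bulk libraries such as these, fewer cells of a type and less RNA per cell cannot be told apart.

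Before S phase, the origin recognition complex with Cdc6 and Cdt1 loads the hexameric MCM helicase onto DNA, a step called licensing. Cdc45 and the GINS complex then turn the ring into an active helicase, DNA polymerases copy the strands while the PCNA clamp holds them to the template, and ribonucleotide reductase supplies deoxynucleotides. Many of these genes are transcribed in late G1 and S phase under E2F transcription factors, so their transcripts are commonly read as a sign of cycling cells, and embryonic brain vessels grow by division of their endothelial cells.

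The promoter stretches of 4 members are shown because E2F control is the best known feature that such genes share, and the data hold the transcript levels of all 4 genes in every library. Each is the 250 bases before the start in the RefSeq promoter table on GRCm38.p6, written 5′ to 3′ on the strand of the gene, and they belong to the 4 members with the most reads whose upstream part holds an E2F match. Capitals mark matches to TTTCCCGC, TTTCGCGC, TTTGCCGC or TTTGGCGC on either strand, and adjoining or overlapping matches run together. Mcm6, the helicase subunit with the most reads, lies on the minus strand at chr1:128359706-128359955 and holds 3 matches. Mcm5, another ring subunit, lies on the plus strand at chr8:75109259-75109508 and holds 2. Mcm7, on the minus strand at chr5:138171884-138172133, and Cdc6, the loading ATPase, on the plus strand at chr11:98907901-98908150, hold 1 each. For Mcm7 and Cdc6 the RefSeq start lies 539 and 350 bases downstream of the start of the gene as deposited. Their stretches thus fall inside the deposited gene bounds.
Mcm6: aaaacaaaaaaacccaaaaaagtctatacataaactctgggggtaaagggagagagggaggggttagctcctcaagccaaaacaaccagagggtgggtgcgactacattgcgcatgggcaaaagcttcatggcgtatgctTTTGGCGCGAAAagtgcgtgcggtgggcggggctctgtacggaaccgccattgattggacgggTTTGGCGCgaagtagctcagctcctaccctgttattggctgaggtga
Mcm5: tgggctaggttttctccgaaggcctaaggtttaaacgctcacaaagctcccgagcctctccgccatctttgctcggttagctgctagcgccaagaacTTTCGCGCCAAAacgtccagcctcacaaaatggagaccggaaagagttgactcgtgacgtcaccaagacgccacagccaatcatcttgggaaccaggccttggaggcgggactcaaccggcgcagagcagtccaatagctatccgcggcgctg
Mcm7: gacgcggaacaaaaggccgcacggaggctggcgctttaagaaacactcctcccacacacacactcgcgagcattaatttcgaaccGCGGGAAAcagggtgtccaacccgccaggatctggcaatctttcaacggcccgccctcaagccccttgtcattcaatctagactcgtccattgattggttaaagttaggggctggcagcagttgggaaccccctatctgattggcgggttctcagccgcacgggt
Cdc6: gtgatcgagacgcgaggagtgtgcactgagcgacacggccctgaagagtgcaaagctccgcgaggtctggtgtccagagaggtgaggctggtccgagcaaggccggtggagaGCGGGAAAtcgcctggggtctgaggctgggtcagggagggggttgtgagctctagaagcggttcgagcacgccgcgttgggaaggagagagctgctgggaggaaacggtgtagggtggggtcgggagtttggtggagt

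A promoter was found in that table for 38 of the 47 genes. Each of the 38 entered with only the promoter nearest to the start of the gene as deposited. The shares of all promoters count every promoter in that table, without such a choice. In windows of 250 bases before to 50 bases after the start, 13 of the 38 (34.2%) held an E2F match, against 744 of 32851 promoters in the table (2.26%). CCAAT, the box bound by NF-Y, was present on either strand in 26 of the 38 (68.4%), against 37.4% of all promoters. TTTGAA, the core of the cell cycle homology region typical of G2/M genes, was found on either strand in 4 of the 38 (10.5%), against 17.9% of all. These are letter matches and not measured binding. The median log2 ratio of KO over WT at E18 was 0.27 over the 13 members with an E2F match and 0.31 over those without one, and at E15 it was -0.06 and -0.12. For E18 over E15 in wild type the medians were -0.40 with a match and -0.69 without one. Of the 25 members without a match, Fen1 is not analysed here at E18 and is left out of the E18 and stage medians. It is in the E15 median with 4 reads in KO E15 and 5 in WT E15.

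Summed over the 46 members measured in every library, transcripts of the replication machinery made up 0.231% of reads in KO E18, 0.184% in WT E18, 0.235% in KO E15 and 0.255% in WT E15. The exact Clopper-Pearson 95% intervals of these shares, which cover counting error only, ran from 0.229% to 0.233% in KO E18, from 0.182% to 0.186% in WT E18, from 0.232% to 0.237% in KO E15 and from 0.253% to 0.258% in WT E15. WT E18 was the lowest of the 4 libraries and WT E15 the highest, and both knockout libraries lay between them. Gene by gene, WT E18 had the lowest CPM of the 4 libraries for 33 of the 46 members (71.7%), against 27.9% of the 13844 genes with 1 CPM in a library and 50 reads in all. WT E15 had the highest CPM for 25 of the 46 (54.3%), against 30.1% of all genes. With TMM factors, which rescale libraries by their typical gene, WT E18 was lowest for 31 members (67.4%), against 22.6% of all genes. Mcm6, Mcm3 and Rrm1 together held between 32.9% and 35.5% of the summed CPM in each library.

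**Figure D1:**
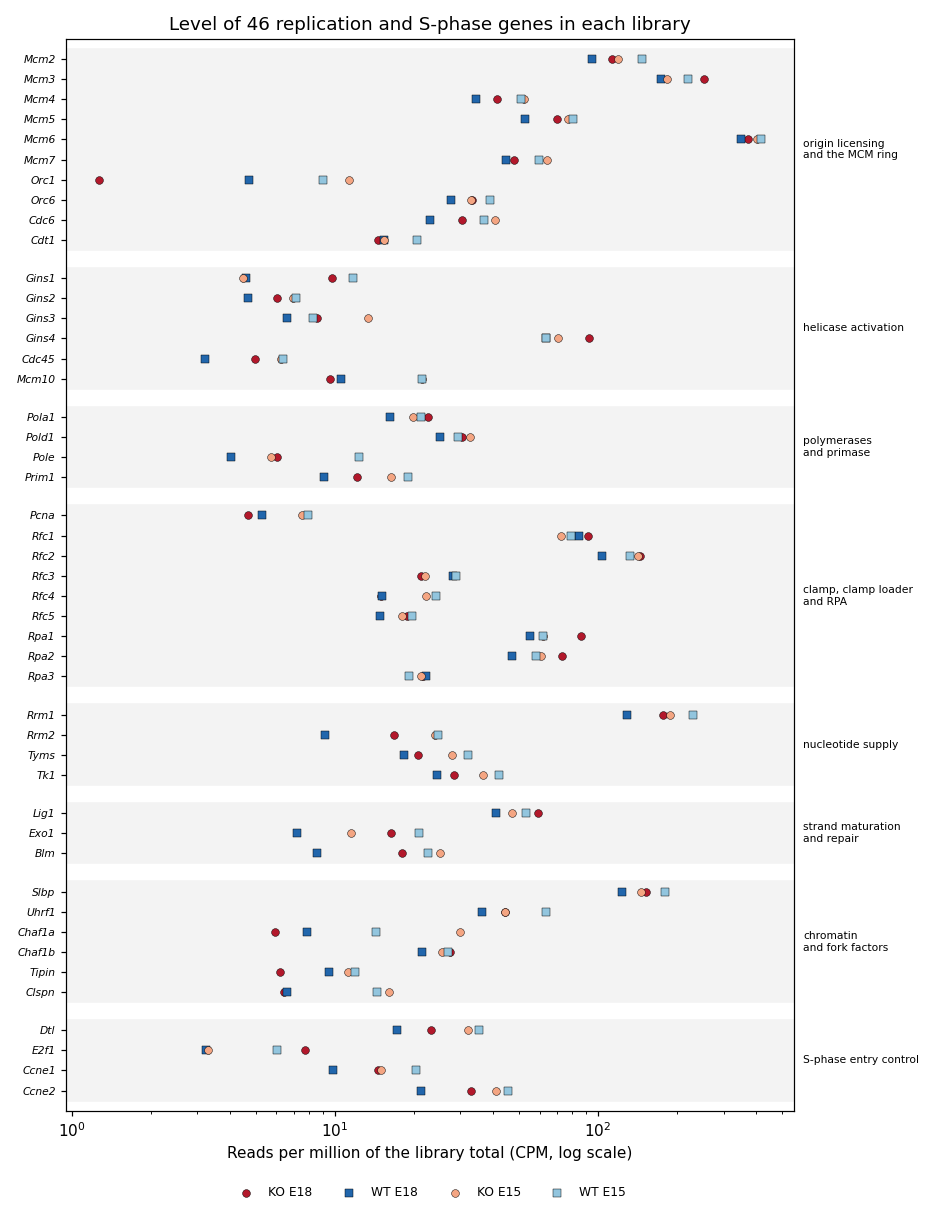
The plot of levels by gene shows the CPM of 46 members (log scale) in each of the 4 libraries, grouped by role, with circles for KO and squares for WT, darker at E18 and lighter at E15. The dark square of WT E18 is the leftmost symbol for 33 members, and Orc1 in KO E18 is the lowest value at 1.27 CPM.

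Levels can be set between genes only per length, and CPM per kilobase (kb) of exon was used for that. Exon length was the union of the exons of all annotated transcripts of a gene, which can exceed the length of the transcript expressed. The part of this in the differences between genes was not tested. Mcm6 was the highest member in every library, at 79.9 CPM per kb in KO E18, 75.2 in WT E18, 85.9 in KO E15 and 89.2 in WT E15. The median member had 5.85 CPM per kb in KO E18, 4.80 in WT E18, 6.40 in KO E15 and 7.67 in WT E15. Although the 6 MCM2-7 proteins form a ring with 1 copy of each, their transcripts were far from equal: the highest exceeded the lowest by 7.39-fold per kb in KO E18, 7.87-fold in WT E18, 5.95-fold in KO E15 and 6.64-fold in WT E15. Among the 4 subunits of GINS, Gins4 exceeded Gins2 by 46.4-fold per kb in KO E18, 41.4-fold in WT E18, 30.9-fold in KO E15 and 27.0-fold in WT E15, and 67.3% of the exon bases of Gins2 are shared with Gse1 on the opposite strand. The 3 subunits of RPA, the protein that coats single-stranded DNA, differed by between 1.58-fold and 1.98-fold per kb in the 4 libraries. In ribonucleotide reductase, Rrm1 exceeded Rrm2 by between 1.97-fold and 3.53-fold per kb.

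At E18, replication transcripts were higher in the knockout library: 36 of the 46 members had a log2 ratio of KO over WT above 0, and the summed level was 25.7% higher. The median log2 ratio was 0.33, against 0.00 over the 12349 genes that entered, of which 50.3% lay above 0. Ratios were computed on CPM plus a pseudocount of 1 and called past 2-fold, for genes that reached 1 CPM in either library and 50 reads in the pair. Exo1 and E2f1 were called higher and Orc1 lower. Among all genes 2.88% were called higher and 3.92% lower, so 2 and 1 of 46 are near the background, and most members lay above 0 by less than that threshold. Blm was called too with DESeq2 size factors or length centring, and length centring took E2f1 out. The 95% interval of the ratio, exact and without the pseudocount, lay above 0 for 33 members and below 0 for 4, against 32.5% and 31.9% of all genes. With 1 library a side there was no test, and these intervals hold no spread between embryos.

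At E15 the same ratio leaned slightly the other way: 15 of the 46 members lay above 0 and 31 below, and the summed level of the knockout differed by -8.16% from that of wild type. The median log2 ratio was -0.09, against -0.01 over 12633 genes, of which 49.4% lay above 0. Chaf1a was called higher and Gins1 lower, against 3.55% and 3.32% of all genes, and Pole stood just inside the threshold at -0.996. Intervals lay above 0 for 5 members, below 0 for 18 and on both sides of it for 23, against 28.9% and 30.5% of all genes above and below.

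**Figure D2:**
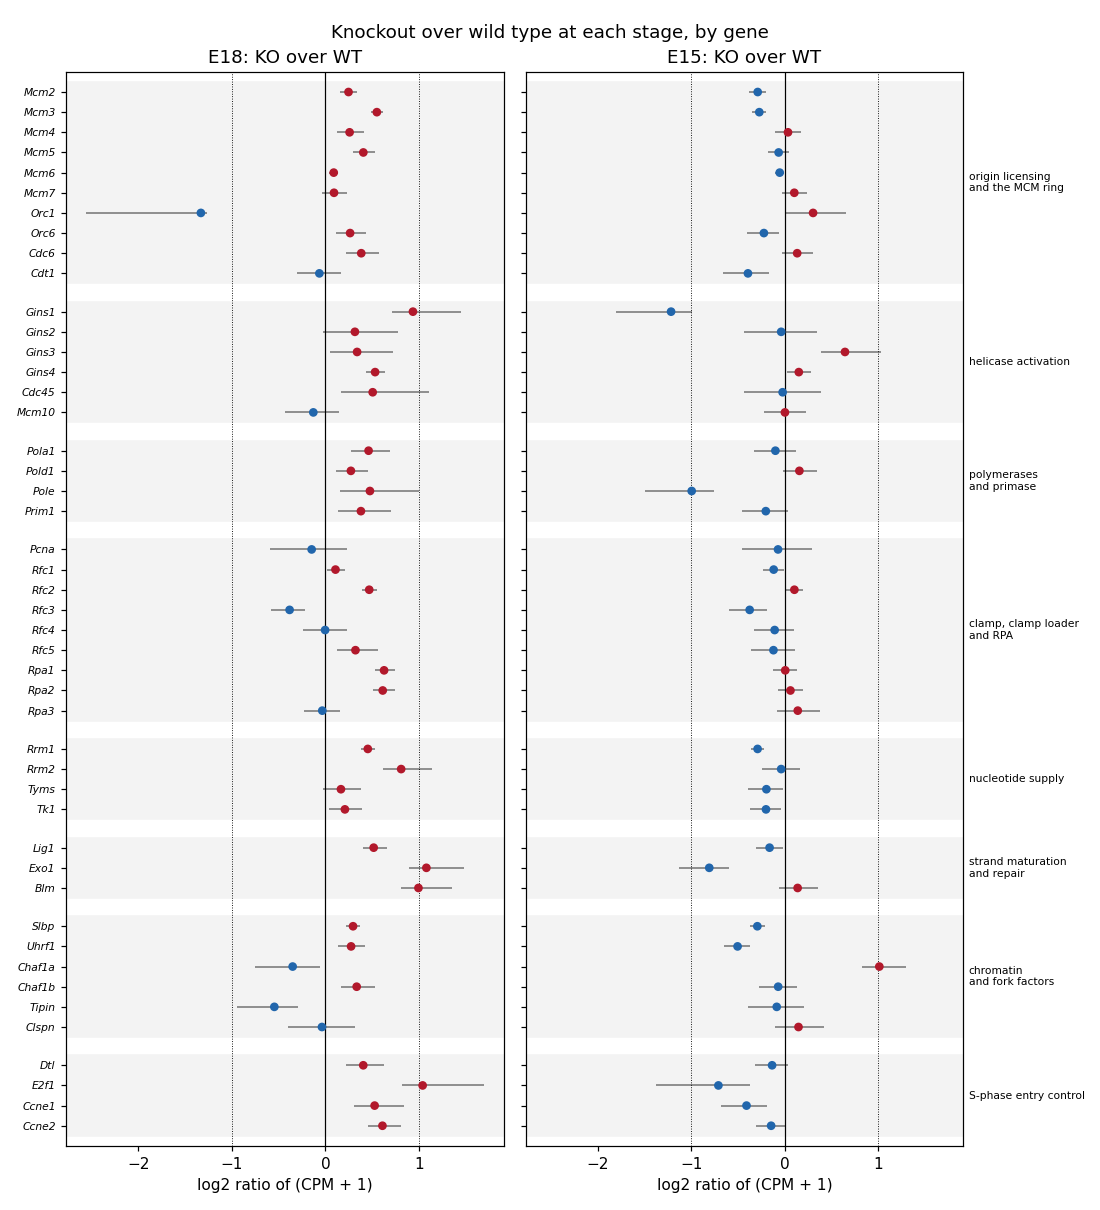
The plot of genotype ratios gives, for each of the 46 members, the log2 ratio of (CPM + 1) of KO over WT at E18 (left panel) and at E15 (right panel), in red above 0 and in blue below. Grey lines are the exact 95% counting intervals without the pseudocount, which reach past the dot for genes with few reads, and dotted lines mark 2-fold. At E18 36 dots lie above 0 and at E15 15 do.

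Within the licensing factors and the MCM ring, all 6 ring subunits were higher in the knockout at E18, by log2 ratios of 0.09 to 0.55, whereas at E15 2 of the 6 were. Summed over the ring, the level was 898 CPM in KO E18, 750 in WT E18, 896 in KO E15 and 975 in WT E15. Mcm3 had the widest ratio of the ring at E18, with 253 CPM in KO E18 and 173 in WT E18 (log2 ratio 0.55, interval 0.49 to 0.61), against 182 in KO E15 and 221 in WT E15 (-0.27, interval -0.35 to -0.20). The KO E18 value of Mcm3 was the highest of the 4 libraries. Mcm2 had 113 CPM in KO E18, 94.8 in WT E18, 120 in KO E15 and 146 in WT E15, with log2 ratios of 0.25 at E18 and -0.29 at E15. Mcm5 had 69.9 CPM in KO E18, 52.6 in WT E18, 77.0 in KO E15 and 80.7 in WT E15, with ratios of 0.40 at E18 and -0.07 at E15. Mcm6 had 373 CPM in KO E18, 351 in WT E18, 401 in KO E15 and 416 in WT E15. Its ratios, 0.09 at E18 and -0.06 at E15, were the closest to 0 of those resolved by counting at both stages. Mcm4 had 41.2 CPM in KO E18, 34.3 in WT E18, 52.4 in KO E15 and 51.1 in WT E15, and its ratios were 0.26 at E18 and 0.03 at E15. Mcm7 had 47.9 CPM in KO E18, 44.9 in WT E18, 63.9 in KO E15 and 59.5 in WT E15. For Mcm7 the intervals held 0 at both stages, and it shares 12.6% of its exon bases with other genes, Ap4m1 on the opposite strand foremost.

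Orc1, the largest subunit of the origin recognition complex, ran against the ring: it had 1.27 CPM (28 reads) in KO E18, 4.72 (90 reads) in WT E18, 11.3 (185 reads) in KO E15 and 9.01 (140 reads) in WT E15. Its log2 ratio of KO over WT was -1.33 at E18 (interval -2.56 to -1.26) and 0.30 at E15 (interval 0.01 to 0.66), and 10.8% of its exon bases are shared with other genes. Orc6, the smallest subunit of that complex, was higher in the knockout at E18 and lower at E15, with 33.2 CPM in KO E18, 27.5 in WT E18, 33.0 in KO E15 and 38.7 in WT E15. Cdc6 had 30.4 CPM in KO E18, 23.1 in WT E18, 40.5 in KO E15 and 36.9 in WT E15, and was higher in the knockout at both stages (0.38 at E18 and 0.13 at E15), with an interval that held 0 at E15. Cdt1, its partner in loading, had 14.6 CPM in KO E18, 15.4 in WT E18, 15.4 in KO E15 and 20.5 in WT E15, so the highest of its 4 values was that of WT E15.

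Of the 6 genes that activate the helicase, 5 were higher in the knockout at E18 and 3 at E15. Gins1 showed the widest opposition between the stages of any member, with 9.73 CPM in KO E18 and 4.61 in WT E18, but 4.47 in KO E15 and 11.7 in WT E15. Its log2 ratio was 0.93 at E18 (interval 0.71 to 1.45) and -1.22 at E15 (interval -1.80 to -0.99). Gins3 and Gins4 did not share this: Gins3 was higher in the knockout at both stages, with 8.55 CPM in KO E18, 6.55 in WT E18, 13.4 in KO E15 and 8.24 in WT E15, and so was Gins4, with 92.3 CPM in KO E18, 63.6 in WT E18, 70.4 in KO E15 and 63.4 in WT E15. The E15 ratio of Gins3, 0.64 (interval 0.38 to 1.03), was the second highest of the members at that stage. Gins2 had 6.05 CPM in KO E18, 4.67 in WT E18, 6.92 in KO E15 and 7.14 in WT E15. Cdc45, the remaining part of the active helicase, had 4.96 CPM in KO E18, 3.20 in WT E18, 6.25 in KO E15 and 6.37 in WT E15. Mcm10, a factor needed for origin firing, had 9.59 CPM in KO E18, 10.6 in WT E18, 21.5 in KO E15 and 21.5 in WT E15, and its intervals held 0 at both stages.

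The polymerase genes, 4 of 4, were higher in the knockout at E18, and their summed level was 71.2 CPM in KO E18, 54.3 in WT E18, 74.5 in KO E15 and 81.8 in WT E15. Pole, the catalytic subunit of leading-strand polymerase epsilon, had 6.00 CPM in KO E18, 4.04 in WT E18, 5.70 in KO E15 and 12.4 in WT E15, with log2 ratios of 0.48 (interval 0.16 to 1.00) at E18 and -0.996 (interval -1.49 to -0.75) at E15. WT E15 stood apart for this gene, above the other 3 libraries. Pold1, which encodes the catalytic subunit of lagging-strand polymerase delta, had 30.5 CPM in KO E18, 25.1 in WT E18, 32.7 in KO E15 and 29.3 in WT E15, with ratios of 0.27 at E18 and 0.15 at E15. Pola1, the catalytic subunit of the priming polymerase, had 22.6 CPM in KO E18, 16.1 in WT E18, 19.8 in KO E15 and 21.3 in WT E15. It is the only member on the X chromosome, and the E18 libraries differ in sex, whose part in its E18 ratio of 0.46 was not tested. Prim1, the primase that makes the RNA primer, had 12.1 CPM in KO E18, 9.07 in WT E18, 16.3 in KO E15 and 18.9 in WT E15.

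The clamp, its loader and RPA were mixed, with 5 of 9 members higher in the knockout at E18 and 4 of 9 at E15. Pcna, the sliding clamp, had 4.68 CPM in KO E18, 5.29 in WT E18, 7.47 in KO E15 and 7.91 in WT E15, from 101 to 123 reads in a library, with log2 ratios of -0.15 (interval -0.59 to 0.23) at E18 and -0.07 (interval -0.46 to 0.29) at E15. Both intervals held 0. Pcna has 2 named pseudogenes, and reads that fit both copies may be lost or exchanged. Per kb it stood at 1.95 CPM in KO E18, 2.21 in WT E18, 3.11 in KO E15 and 3.30 in WT E15, under the median member. Within the clamp loader, which opens the clamp around DNA, Rfc2 had 144 CPM in KO E18 against 104 in WT E18 (0.47, interval 0.39 to 0.55), and 142 CPM in KO E15 against 132 in WT E15 (0.10, interval 0.02 to 0.19). Rfc3 ran against it, with 21.2 CPM in KO E18, 28.0 in WT E18, 21.9 in KO E15 and 28.8 in WT E15, and was the member lower in the knockout by the same ratio, -0.38, at both stages (intervals -0.58 to -0.22 at E18 and -0.60 to -0.19 at E15). Rfc1, Rfc4 and Rfc5 had log2 ratios of 0.11, -0.00 and 0.32 at E18, and of -0.12, -0.11 and -0.12 at E15. Rpa1 and Rpa2 were higher in the knockout at E18, Rpa1 with 85.8 CPM in KO E18 against 55.3 in WT E18, and Rpa2 with 72.8 CPM in KO E18 against 47.3 in WT E18. Their partner Rpa3 was not, with 21.7 CPM in KO E18 against 22.2 in WT E18. At E15 the 3 subunits had ratios of 0.00, 0.06 and 0.14, with intervals that held 0, for Rpa1, Rpa2 and Rpa3 in that order.

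The 4 nucleotide supply genes were all higher in the knockout at E18 and all lower at E15, with a summed level of 242 CPM in KO E18, 181 in WT E18, 276 in KO E15 and 329 in WT E15. Rrm2, the ribonucleotide reductase subunit made in S phase, had 16.8 CPM in KO E18, 9.17 in WT E18, 24.0 in KO E15 and 24.7 in WT E15, so the E15 libraries lay close together and WT E18 was the lowest. Its log2 ratio was 0.81 (interval 0.61 to 1.14) at E18 and -0.04 (interval -0.25 to 0.17) at E15. Rrm1, the large catalytic subunit of the same enzyme, had 176 CPM in KO E18, 129 in WT E18, 188 in KO E15 and 230 in WT E15. Thymidylate is made by synthesis through Tyms or by salvage through Tk1, and both had small ratios at both stages. Tyms had 20.6 CPM in KO E18, 18.3 in WT E18, 27.9 in KO E15 and 32.1 in WT E15, and Tk1 had 28.4 CPM in KO E18, 24.4 in WT E18, 36.6 in KO E15 and 42.2 in WT E15. Tyms has 1 named pseudogene.

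Strand maturation and repair held 2 of the 3 highest ratios at E18. Exo1, a 5′ to 3′ exonuclease of mismatch repair and end resection, had 16.3 CPM in KO E18, 7.18 in WT E18, 11.5 in KO E15 and 20.9 in WT E15. At E18 its log2 ratio was 1.08 (interval 0.89 to 1.48), the highest of the members, and at E15 it was -0.81 (interval -1.13 to -0.60). Blm, the helicase that dissolves recombination intermediates, had 396 reads in KO E18, 163 in WT E18, 408 in KO E15 and 352 in WT E15, and WT E18, at 8.55 CPM, was well under the other 3. Its E18 ratio of 0.99 (interval 0.81 to 1.35) lay just inside 2-fold. Lig1, which seals Okazaki fragments, had 59.0 CPM in KO E18, 41.0 in WT E18, 47.3 in KO E15 and 53.1 in WT E15. Fen1, the flap endonuclease that trims them, had 4 reads in KO E15 and 5 in WT E15 and did not pass the filter of any comparison. Of its exon bases 84.2% are shared with other genes, mainly Gm10143 on the opposite strand, and whether counting set such reads aside was not tested.

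The chromatin and fork factors split, with 3 of 6 higher in the knockout at E18 and 2 of 6 at E15. Slbp, which binds the stem-loop of replication-dependent histone mRNAs, had 152 CPM in KO E18, 123 in WT E18, 146 in KO E15 and 179 in WT E15. Uhrf1, which guides maintenance DNA methylation behind the fork, had 44.2 CPM in KO E18, 36.4 in WT E18, 44.3 in KO E15 and 63.4 in WT E15, the last value apart from the other 3. Chaf1a and Chaf1b, subunits of the assembly factor that places histones on new DNA, had unlike ratios. Chaf1a had 5.91 CPM in KO E18, 7.81 in WT E18, 29.9 in KO E15 and 14.3 in WT E15, with log2 ratios of -0.35 (interval -0.75 to -0.05) at E18 and 1.01 (interval 0.83 to 1.29) at E15, and KO E15 was the highest library. Of the exon bases of Chaf1a 52.5% are shared with other genes, chiefly Ubxn6 on the opposite strand, whose own log2 ratios were 0.00 at E18 and -0.18 at E15. Chaf1b had 27.3 CPM in KO E18, 21.4 in WT E18, 25.5 in KO E15 and 26.9 in WT E15. Tipin, which with Timeless steadies the fork, had 136 reads in KO E18, 181 in WT E18, 183 in KO E15 and 186 in WT E15. KO E18 was the lowest at 6.18 CPM, and the E18 ratio of -0.55 (interval -0.95 to -0.29) was the second lowest of the members. Clspn, the mediator of the replication checkpoint, had 6.41 CPM in KO E18, 6.61 in WT E18, 16.1 in KO E15 and 14.4 in WT E15.

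Regulators of S-phase entry were all higher in the knockout at E18, 4 of 4, and all lower at E15, with a summed level of 78.3 CPM in KO E18, 51.5 in WT E18, 91.5 in KO E15 and 107 in WT E15. E2f1, an activating E2F factor, had 7.73 CPM (170 reads) in KO E18, 3.25 (62 reads) in WT E18, 3.31 (54 reads) in KO E15 and 6.05 (94 reads) in WT E15. The highest of these was KO E18, and its log2 ratio was 1.04 (interval 0.82 to 1.69) at E18 and -0.71 (interval -1.38 to -0.37) at E15. The E-type cyclins, which activate Cdk2 at the start of S phase, had the same signs with smaller ratios. Ccne1 had 320 of the 21992660 reads in KO E18, 187 of 19075407 in WT E18, 245 of 16328300 in KO E15 and 315 of 15542930 in WT E15, with ratios of 0.53 (interval 0.30 to 0.84) at E18 and -0.41 (interval -0.68 to -0.19) at E15. Ccne2 had 32.8 CPM in KO E18, 21.2 in WT E18, 41.1 in KO E15 and 45.6 in WT E15, with ratios of 0.61 (interval 0.45 to 0.81) at E18 and -0.15 (interval -0.31 to 0.00) at E15, and shares 17.4% of its exon bases with other genes. Rfc2, Rfc4, Rfc5, Slbp, Orc6, Cdc45 and Lig1 share between 5.79% and 15.1%. Dtl, the adaptor that marks Cdt1 for destruction during S phase, had 23.1 CPM in KO E18, 17.2 in WT E18, 32.1 in KO E15 and 35.4 in WT E15.

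**Figure D3:**
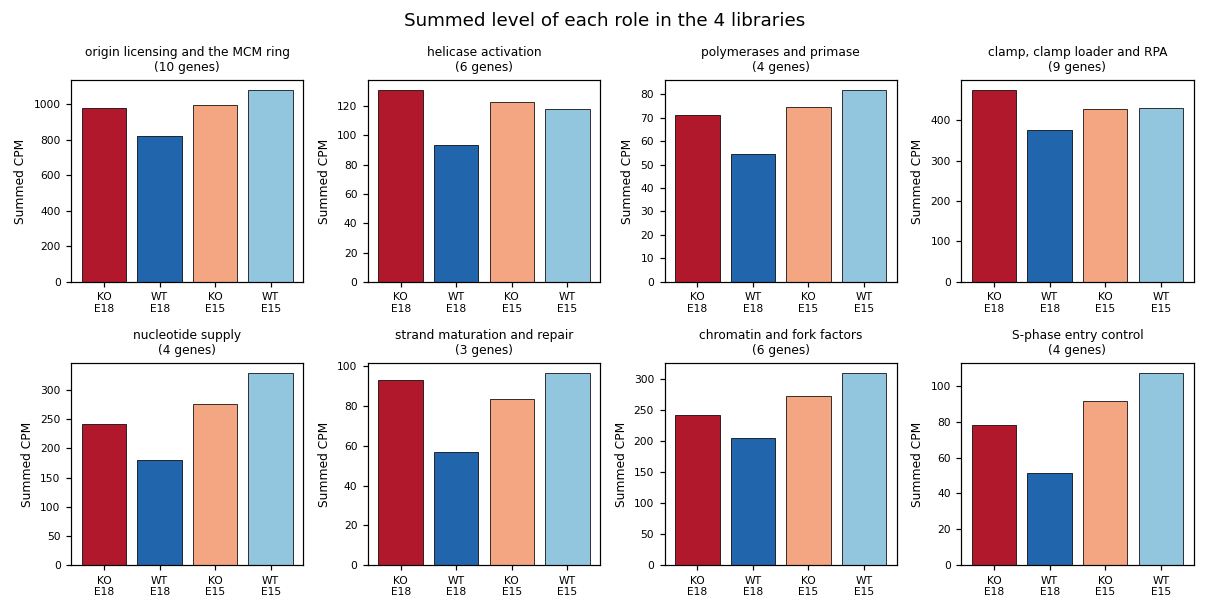
The plot of role sums shows, in a panel for each of the 8 roles, the summed CPM of its members as bars from 0 in KO E18, WT E18, KO E15 and WT E15. There are no error bars because each bar is 1 library. WT E18 is the lowest bar in all 8 panels, as for nucleotide supply at 181 CPM.

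The difference between the genotype ratios, E18 minus E15, was above 0 for 36 of the 46 members (78.3%), with a median of 0.43 and an interquartile range of 0.12 to 0.66. Over the 11784 genes that entered at both stages the median was -0.01 and 49.2% lay above 0. Members above 0 at E18 and below 0 at E15 numbered 26 (56.5%), against 24.6% of all genes, and 5 (10.9%) had the opposite order, against 23.9%. A further 10 were above 0 at both stages and 5 below at both. This difference itself has no test, since each of the 4 values in it comes from 1 library.

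Between the stages, replication transcripts were lower at E18 in wild type: 43 of the 46 members had a log2 ratio of E18 over E15 below 0, and the summed level at E18 differed by -28.0% from that at E15. Since WT E18 had no Xist reads and WT E15 had 2549, stage and sex cannot be told apart here. In wild type the median was -0.59, against -0.11 over 12515 genes, of which 39.1% lay above 0. In the knockout the summed level differed by -1.46%, 17 members lay above 0 and 29 below, and the median was -0.09, against -0.10 over 12465 genes. Under TMM or DESeq2 size factors the all-gene medians move up by 0.11 to 0.12 in the knockout and 0.11 in wild type, to near 0, the knockout median turns to 0.018 or 0.028 with 25 members above 0, and the wild-type median becomes -0.47 or -0.48. On each of these scales the knockout median lay beside the all-gene median and the wild-type median below it. Intervals lay below 0 for 41 members in wild type and for 21 in the knockout, against 43.4% and 43.6% of all genes.

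In wild type 0 members were called higher and 7 lower, namely Exo1, Pole, Rrm2, Blm, Gins1, Ccne2 and Clspn, against 3.08% and 7.58% of all genes. Under TMM, DESeq2 size factors or length centring Ccne2 and Clspn were no longer called. Dtl, at -0.996, lay just inside the threshold. The lowest ratios were those of Exo1 (-1.42, interval -1.84 to -1.25), Pole (-1.41, interval -2.01 to -1.22) and Rrm2 (-1.34, interval -1.70 to -1.17). The 3 members not lower were Rpa3 (0.20), Rfc1 (0.11), the large subunit of the clamp loader, and Gins4 (0.00). The intervals of Rpa3 and Gins4 held 0, and that of Rfc1, 0.00 to 0.22, left it out narrowly. In the knockout E2f1 was called higher and 4 members lower, against 4.34% and 10.9% of all genes. The 4 lower members were Orc1 (-2.44), Chaf1a (-2.16), Clspn (-1.20) and Mcm10 (-1.09). The same 3 settings took Mcm10 out and added Gins1 as higher. For Orc1 the ratio rests on 28 reads in KO E18 against 185 in KO E15, and its interval without the pseudocount was -3.78 to -2.58. E2f1 had 1.02 (interval 0.78 to 1.69) in the knockout and -0.73 in wild type. Gins1 had 0.97 in the knockout and -1.18 in wild type, and Mcm3 had 0.47 in the knockout and -0.35 in wild type. Clspn and Mcm10 were lower at E18 in both genotypes, at -1.02 and -0.96 in wild type.

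**Figure D4:**
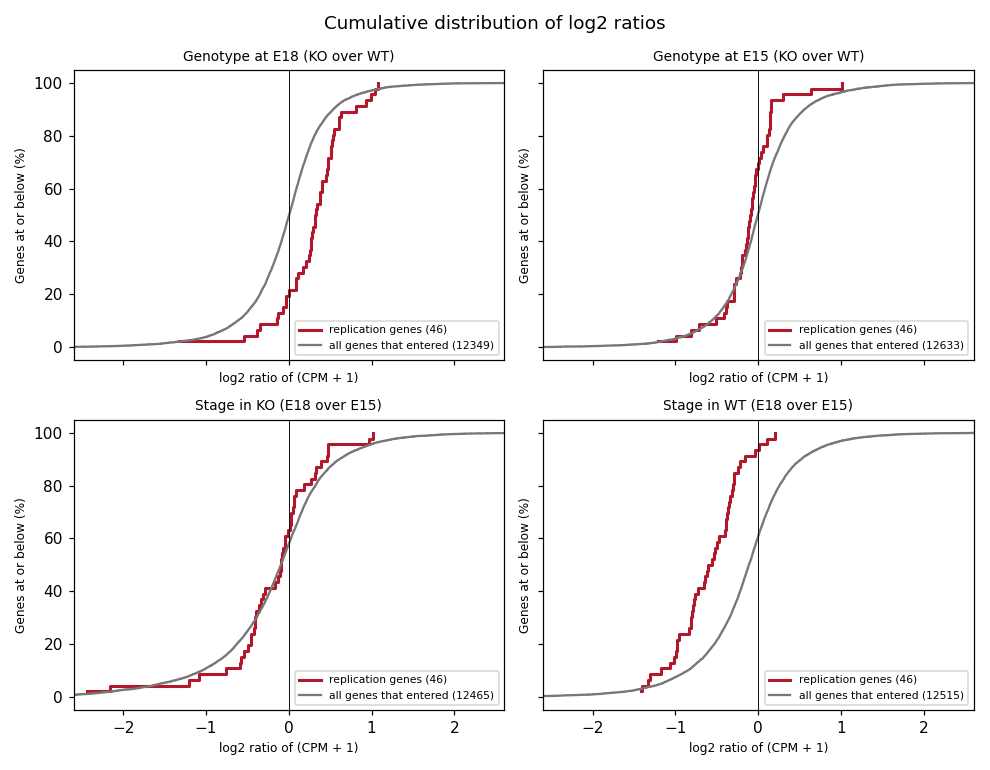
The plot of cumulative distributions gives the share of genes at or below each log2 ratio of (CPM + 1), in red for the 46 members and in grey for all genes that entered, in a panel for each of the 4 comparisons. The red curve lies right of the grey one for genotype at E18 (medians 0.33 and 0.00), left of it for stage in wild type (medians -0.59 and -0.11), and close to it at the median for stage in the knockout.

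Effects shared across libraries were tested with edgeR's quasi-likelihood test, stage and genotype as terms, which leaves 1 residual degree of freedom and takes the difference between the genotype ratios of the 2 stages as noise. For genotype it called 0 of the 46 members at an adjusted p under 0.05, against 0.0224% of 13416 genes higher and 0% lower. Unadjusted p was under 0.05 for 0 members with edgeR and 0 with DESeq2, against 5.12% and 4.48% of all genes. The fitted genotype log2 fold change was above 0 for 33 members, with a median of 0.10. For stage, edgeR called 0 members as well, against 0.909% of all genes higher and 0.432% lower. Unadjusted p for stage was under 0.05 for 4 members with DESeq2, against 14.9% of all genes, and for 7 with edgeR, all lower at E18, against 16.7%. These were led by Chaf1a, with a fitted log2 fold change of -1.49 (edgeR, adjusted p = 0.133), Mcm10 with -0.97 (adjusted p = 0.143), Clspn with -1.11 (adjusted p = 0.165) and Orc1 with -1.89 (adjusted p = 0.208). Rrm2, Blm and Dtl followed. The fitted stage fold change was below 0 for 34 members, with a median of -0.29, against -0.02 over all genes. A p that misses the threshold at 1 residual degree of freedom does not show that levels were equal.

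Other genes of the pathway leaned the same way at E18, with a lower median. Of 53 further replication genes, 50 entered at E18 and 35 of them were above 0, with a median log2 ratio of 0.14. Dscc1, which helps load the clamp for sister cohesion, was highest at 1.53, with 15.5 CPM in KO E18, 4.72 in WT E18, 6.86 in KO E15 and 11.1 in WT E15, and Ticrr, an origin firing factor, was lowest at -1.09. At E15 25 of 50 were above 0 (median -0.00), from Wdhd1 at 1.25 to Ticrr at -0.90. E18 over E15 gave a median of -0.25 in the knockout, from Dscc1 at 1.07 to Mcm9 at -1.87, and of -0.32 in wild type, from Pole2 at 0.37 to Donson at -1.52, beside all-gene medians of -0.10 and -0.11. Of 27 G1/S control genes, 19 were above 0 for KO over WT at E18 (median 0.16, from E2f8 at 0.98 to Rb1 at -1.38) and 14 at E15 (median 0.05, from Cdkn2c at 1.11 to E2f7 at -0.61). For E18 over E15, 17 of these 27 lay below 0 in the knockout (median -0.26) and 19 in wild type (median -0.30). The lowest of them was Rb1 at -1.33 in the knockout and E2f7 at -1.08 in wild type, and Cdkn1a was the highest in both genotypes, at 1.07 and 1.12 in that order. Cdkn1a, an inhibitor of cyclin-dependent kinases, had 467 CPM in KO E18, 371 in WT E18, 223 in KO E15 and 170 in WT E15.

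Genes of G2 and mitosis were lower at E18 in both genotypes: 20 of 20 lay below 0 in the knockout (median -0.58) and in wild type (median -0.89), and with TMM factors 17 did in the knockout (median -0.47) and 20 in wild type (median -0.78). For KO over WT, 16 of 20 were above 0 at E18 (median 0.24) and 5 of 20 at E15 (median -0.19). At E18 Ttk, a kinase of the spindle checkpoint, was called higher at 1.42, with 13.6 CPM in KO E18 against 4.46 in WT E18, and Cenpf, a kinetochore protein gene, was called lower at -1.15, with 12.7 CPM in KO E18 against 29.4 in WT E18. At E15 none of the 20 was called, and ratios ran from Plk1 at 0.36 to Kif11 at -0.47. E18 over E15 ran from Kif11 at -0.02 to Cenpf at -1.59 in the knockout and from Bub1 at -0.42 to Ttk at -1.90 in wild type. The proliferation marker Mki67 had 39.2 CPM in KO E18, 26.7 in WT E18, 63.0 in KO E15 and 84.0 in WT E15, and the topoisomerase gene Top2a had 83.9 CPM in KO E18, 71.7 in WT E18, 116 in KO E15 and 155 in WT E15.

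Markers of other cell types were read beside these ratios. The 10 microglia and macrophage markers, none of them at 0, summed to 142 CPM in KO E18, 80.8 in WT E18, 255 in KO E15 and 508 in WT E15. For KO over WT, 7 of the 8 that entered at E18 were above 0 (median 0.80) and 8 of the 9 that entered at E15 below 0 (median -0.74), the same directions as the replication genes, and E18 over E15 had medians of -1.63 in the knockout and -3.11 in wild type. Lyz2 alone held 84.7 CPM of the sum in KO E18, 45.1 in WT E18, 15.3 in KO E15 and 35.1 in WT E15. For E18 over E15 it was the only marker of the 8 above 0, at 2.39 in the knockout and 0.36 in wild type. The summed levels of these markers and of the replication genes put the 4 libraries in the same order on library totals, WT E15 highest and WT E18 lowest, whereas with TMM factors the replication sum was higher in KO E18 (2406 CPM) than in KO E15 (2256 CPM). The part of such cells in the replication ratios was not tested. Erythroid markers summed to 741 CPM in KO E18, 944 in WT E18, 540 in KO E15 and 439 in WT E15, with none at 0. Klf1, which is among them, is not analysed here at E15. The order of the erythroid sums was the reverse of that of the replication sum on library totals, but not of that with TMM factors. For KO over WT the erythroid median was -0.51 at E18, where 6 of 8 lay below 0, and -0.04 at E15. Mural markers summed to 10789 CPM in KO E18, 8682 in WT E18, 4488 in KO E15 and 6825 in WT E15, with none at 0. For KO over WT 4 of 7 mural markers lay above 0 at E18 (median 0.08) and 6 of 7 below 0 at E15 (median -0.64), and for E18 over E15 the medians were 0.96 in the knockout and 0.32 in wild type. Neuron markers, at 52.6 CPM in KO E18, 52.8 in WT E18, 59.5 in KO E15 and 115 in WT E15, were below 0 for KO over WT in 6 of 9 at E18 (median -0.24) and in 8 of 8 at E15 (median -0.98), with E18 over E15 medians of -0.47 in the knockout and -0.65 in wild type. Fibroblast markers summed to 215 CPM in KO E18, 211 in WT E18, 147 in KO E15 and 309 in WT E15. For KO over WT 3 of 5 lay below 0 at E18 (median -0.17) and 4 of 4 at E15 (median -0.96), and the E18 over E15 medians were 0.90 in the knockout and -0.50 in wild type. The part of erythroid, mural, neuron and fibroblast cells in the replication ratios was not tested. Of the neuron and fibroblast markers, Snap25 and Pdgfra were listed at 0 reads in KO E18, Dcn in WT E18 and Pdgfra in KO E15.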

How the data were processed

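RNA from brain endothelial cells of 4 mouse groups, 1 library each, was sequenced. Per the file headers, the deposited tables (1 a stage) hold raw read counts for Ensembl genes and the authors' CPM; the deposited CPM was used only to recover library totals, in which between 0.00481% and 0.0195% of reads lay outside the table. Per the submitters' processing notes, the tools were HTSeq 0.6.0, TopHat2 2.0.12 and Bowtie2 2.2.3 and the build mm9, with no roles stated. Of 20143 gene identifiers found in GENCODE M21 (GRCm38), 18140 (90.1%) have the coordinates of the deposited tables, and coordinates are taken as GRCm38. No source used here says whether counting was stranded, so reads of overlapping genes on opposite strands may be mixed.

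CPM was computed from the counts and the total of listed genes. Log2 ratios carry a pseudocount of 1 CPM, which understates differences of low genes; a gene needed 1 CPM in either library of a pair and 50 reads in the pair, and was called past 2-fold. Each ratio of scaled counts has an exact Clopper-Pearson 95% interval. Intervals and floors (3 reads) cover counting error only, and nothing replicates a group. Stage comparisons used the 16181 genes in both tables. The additive test was edgeR 4.0.16 (glmQLFit, glmQLFTest) with TMM and Benjamini-Hochberg adjustment over 13416 genes that reached 1 CPM in 2 or more libraries (common dispersion 0.111, prior degrees of freedom 6.14). DESeq2 1.42.0, other scalings, pseudocounts and filters were alternatives. Procedures were tried on simulated data. The simulated counts for the additive test had a lower dispersion than these libraries and the same genotype effect at both stages. They do not show how that test performs here. Python 3.11.15, pandas 2.3.3, SciPy 1.17.1 and R 4.3.3 were used. Exon lengths and overlaps came from GENCODE M21, promoters from RefSeq.

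The members, gene lists and tests were chosen with earlier results of these data known. Given in full are Mcm2 to Mcm7, Pcna, E2f1, Ccne1, Ccne2, Rrm2 and, in each comparison, the 3 members with the highest and the 3 with the lowest ratio. Of the other replication, G1/S, G2/M and histone lists the highest and lowest gene of each comparison are named. Marker lists are given by sum and median, except neural progenitor markers, which are given by the range of their sums only. Mki67, Top2a and genes that share exon bases with a member were named after their values were seen.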

Additional observations from a re-analysis of the deposited data

Results flagged for a closer look

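For 17 members the log2 ratio of KO over WT had opposite signs at E18 and E15 with both counting intervals leaving out 0, and the difference, E18 minus E15, was not tested. That is 37.0% of the 46 members, against 2184 of the 11784 genes that entered at both stages (18.5%). It was above 0 for 15 of them (32.6% of the members), against 1184 of all genes, and below 0 for 2 (4.35%), against 1000 of all genes (8.49%). Gins1 led with 2.15, followed by the exonuclease gene Exo1 with 1.89, the transcription factor gene E2f1 with 1.75 and the polymerase gene Pole with 1.47. Ccne1 had 0.94, Mcm3 0.82, Uhrf1 0.78, Rrm1 0.74, Lig1 0.68, Slbp 0.59, Mcm2 0.54, Orc6 0.49, Tk1 0.41, Rfc1 0.23 and Mcm6 0.14. Chaf1a, at -1.36, and Orc1, at -1.63, ran the other way, higher in the knockout at E15 and lower at E18.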

How the results depend on the processing

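The median genotype ratios and the wild-type stage median kept their signs under every scaling, pseudocount, filter, length centring and member set tried. The median for stage in the knockout was -0.09 on library totals, but 0.028 with DESeq2 size factors and 0.018 with TMM factors, so its direction is set by the scaling. Counts past 2-fold depended on the pseudocount: for KO over WT at E18 3 members became 5 (4 higher) with 0.25 CPM, against 4.19% of all genes higher and 5.56% lower, and 0 with 5 CPM, against 0.340% and 0.664%. For KO over WT at E15 2 became 0 with 5 CPM, against 1.29% and 0.594% of all genes. For stage in the knockout 5 became 2, both lower, with 5 CPM, against 1.43% higher and 4.82% lower, and for stage in wild type 7 became 11, all lower, with 0.25 CPM, against 9.35% of all genes lower, and 3 with 5 CPM, against 2.29%. TMM factors, DESeq2 size factors and length centring each left 5 of the 7 wild-type stage calls, without Ccne2 and Clspn, and in the knockout exchanged Mcm10 for Gins1. Without the 15 members that share over 5% of their exon bases with another gene or have a named pseudogene, a choice made after seeing the data, 1 call was left for KO over WT at E15 and 3 for stage in the knockout; fewer members were counted. In the additive test of stage, 1 of 46 members (Chaf1a, adjusted p = 0.0300, edgeR) was called when genes needed at least 5 CPM in 2 libraries, against 0 otherwise. Of the 10233 genes tested with that filter, 507 were called higher and 490 lower for stage, a larger share than among the members. For genotype that filter gave 24 higher and 5 lower over all genes. DESeq2 gave 39 and 8 for genotype and 370 and 358 for stage. Library totals without TMM gave 0 and 0 for genotype and 53 and 49 for stage, and no filter gave 0 and 0 for genotype and 59 and 33 for stage. The summed level with TMM factors was 2406 CPM in KO E18, 1917 in WT E18, 2256 in KO E15 and 2446 in WT E15. Without the 3 members with the most reads it was 1508 CPM in KO E18, 1187 in WT E18, 1574 in KO E15 and 1686 in WT E15, by construction. No other recomputed median of the members changed sign. No replicate could be left out. No paired analysis was possible because each group held 1 library, other than the additive test, which compares genotypes within stages.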

Other observations

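Transcripts of replication-dependent histone genes, which are made in S phase and mostly lack a poly(A) tail, were read mainly from 1 gene. Of 31 listed, 8 entered for KO over WT at E18 and 5 at E15. Their summed level was 125 CPM in KO E18, 158 in WT E18, 66.9 in KO E15 and 97.0 in WT E15, but Hist1h1c alone made up 78.5% of it in KO E18, 78.6% in WT E18, 61.4% in KO E15 and 72.0% in WT E15. The other genes together had 26.9 CPM in KO E18, 33.7 in WT E18, 25.8 in KO E15 and 27.2 in WT E15. Median log2 ratios were -0.44 for KO over WT at E18, from Hist2h2be at 1.25 to Hist1h2be at -1.29, and 0.07 at E15, from Hist3h2a at 0.48 to Hist2h2be at -1.23. For E18 over E15 they were -0.52 in the knockout, from Hist2h2be at 2.00 to Hist2h4 at -0.96, and 0.35 in wild type, from Hist1h2be at 1.65 to Hist2h2be at -0.48. Hist2h2be, whose transcripts can also be polyadenylated, had 10.4 CPM in KO E18, 3.77 in WT E18, 1.84 in KO E15 and 5.66 in WT E15.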
